A study of Mus musculus with 6 samples.

Results

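The 46 mouse genes described here encode nuclear receptors, and the values are the Runx1 peaks called at them in lung fibroblasts. A peak was assigned to a receptor gene when it met the gene body, as RefSeq places it on build mm10, or the 10 kb on either side. All 46 genes were found in the gene table, among 21883 protein-coding genes. They were sorted into 6 classes, by ligand, by a part in the circadian clock or as the remaining orphan receptors. The classes held 5 steroid, 6 retinoid, 3 thyroid hormone and vitamin D, 8 lipid-sensing, 4 clock and 20 other orphan receptors. These genes held 136 of 25052 sham peaks, 231 of 56316 D14 peaks and 72 of 15009 D56 peaks.

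Runx1, a DNA-binding transcription factor, was mapped on chromatin by immunoprecipitation of its DNA followed by sequencing (ChIP-seq). Every library came from mice of genotype Col1a2-CreERT2;mTmG, in which a tamoxifen-inducible Cre under control of the collagen gene Col1a2 switches a membrane reporter from red to green, and green (GFP+) lung cells labelled as fibroblasts were used. The 3 conditions were sham injury, 14 days after bleomycin given into the trachea (D14) and 56 days after it (D56). Bleomycin is a drug that injures the lung and brings on fibrosis. Each condition had 1 ChIP library and 1 input library, the chromatin sequenced without immunoprecipitation, so conditions could not be tested against each other and no p-value is given. The labels do not state age, sex, the number of mice pooled or the time of the sham collection. A reporter driven by Col1a2 marks any cell that used that gene when Cre was active, and peak lists hold no transcript levels against which the cell type could be checked.

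Nuclear receptors are transcription factors that bind DNA through zinc fingers and, in most cases, change activity when a small lipophilic molecule enters their ligand pocket. Steroid receptors bind DNA mostly as homodimers, while the retinoic acid, thyroid hormone, vitamin D and lipid-sensing receptors pair with a retinoid X receptor (RXR). Without ligand many of them hold corepressors on DNA, and ligand exchanges these for coactivators. Orphan receptors were named before a ligand was known, and some, such as the NR4A group, are governed mainly by how fast their own genes are transcribed. In the lung, glucocorticoids acting through NR3C1 and retinoic acid acting through RARs take part in maturation of the alveoli, and PPARG is a regulator of lipid-storing fibroblasts.

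Depth differed between the libraries and bears on every count below. Tags numbered 48816721 in the sham ChIP library, 78744701 in that of D14 and 49669125 in that of D56, beside 39609538, 49312043 and 19949187 in the inputs. The weakest peak had a pileup, the height of the fragment signal, of 14 in sham, 13 at D14 and 10 at D56. Numbers of peaks therefore carry list length as well as binding, and these cannot be told apart without replicates. Fold enrichment is the authors' own value for each peak, the pileup over the local background. It was made for each library separately and is used here to rank and describe peaks within a list, not as a change between lists. The 95% intervals were computed by Wilson's method and hold counting error alone. Where 3 values follow each other without a library's name, they are in the order sham, D14, D56.

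The promoters of 6 receptor genes are shown first because a peak summit lay inside each in all 3 libraries and their D14 folds were the highest of such promoters. A seventh, Esr2, was added after its values were seen, since it carries the sequence RUNX proteins bind. Each line gives the 250 bases before an annotated start, 5′ to 3′ on the gene's strand, from the RefSeq promoter table of build GRCm38.p6. Capitals mark the GC box GGGCGG, which binds SP and KLF factors and reads CCGCCC where it lies on the other strand, the ETS core CGGAAG (in Ppard) and the RUNX core TGTGGT (in Esr2); neighbouring GC boxes overlap in Nr2f6 and Nr4a2. Nr1d2 is at chr14:18239107-18239356 (minus strand), Nr3c2 at chr8:76902080-76902329 (plus), Nr2f6 at chr8:71381953-71382202 (minus), Ppard at chr17:28232504-28232753 (plus), Nr4a2 at chr2:57124004-57124253 (minus), Nr4a3 at chr4:48045055-48045304 (plus) and Esr2 at chr12:76177260-76177509 (minus).
Nr1d2: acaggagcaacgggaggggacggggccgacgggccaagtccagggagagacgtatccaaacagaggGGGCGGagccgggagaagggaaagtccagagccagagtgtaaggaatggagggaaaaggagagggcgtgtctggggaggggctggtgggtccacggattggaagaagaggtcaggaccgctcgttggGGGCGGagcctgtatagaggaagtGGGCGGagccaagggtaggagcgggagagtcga
Nr3c2: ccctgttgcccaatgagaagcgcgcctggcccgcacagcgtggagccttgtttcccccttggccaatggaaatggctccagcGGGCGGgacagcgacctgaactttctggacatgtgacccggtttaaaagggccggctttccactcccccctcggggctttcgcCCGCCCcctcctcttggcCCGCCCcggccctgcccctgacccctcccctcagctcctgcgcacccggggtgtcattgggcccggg
Nr2f6: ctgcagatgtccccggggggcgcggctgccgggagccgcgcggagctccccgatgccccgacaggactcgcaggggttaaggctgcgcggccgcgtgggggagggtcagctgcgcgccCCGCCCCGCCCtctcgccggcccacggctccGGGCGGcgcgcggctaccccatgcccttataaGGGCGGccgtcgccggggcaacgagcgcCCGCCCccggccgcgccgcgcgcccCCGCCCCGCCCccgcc
Ppard: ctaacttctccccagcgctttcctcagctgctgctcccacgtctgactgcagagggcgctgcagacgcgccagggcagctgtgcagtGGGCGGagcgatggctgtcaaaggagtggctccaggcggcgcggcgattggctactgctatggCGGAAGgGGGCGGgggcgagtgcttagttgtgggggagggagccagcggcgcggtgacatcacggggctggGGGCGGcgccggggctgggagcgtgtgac
Nr4a2: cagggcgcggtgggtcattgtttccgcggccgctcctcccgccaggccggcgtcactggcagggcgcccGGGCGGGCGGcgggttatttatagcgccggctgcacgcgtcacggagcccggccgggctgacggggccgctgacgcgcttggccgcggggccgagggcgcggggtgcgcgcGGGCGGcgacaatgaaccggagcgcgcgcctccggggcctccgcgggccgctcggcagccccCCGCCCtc
Nr4a3: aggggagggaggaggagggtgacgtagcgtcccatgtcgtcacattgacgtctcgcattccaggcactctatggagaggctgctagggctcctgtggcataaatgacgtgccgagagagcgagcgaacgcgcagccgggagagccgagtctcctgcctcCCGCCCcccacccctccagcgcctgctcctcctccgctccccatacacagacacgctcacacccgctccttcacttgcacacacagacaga
Esr2: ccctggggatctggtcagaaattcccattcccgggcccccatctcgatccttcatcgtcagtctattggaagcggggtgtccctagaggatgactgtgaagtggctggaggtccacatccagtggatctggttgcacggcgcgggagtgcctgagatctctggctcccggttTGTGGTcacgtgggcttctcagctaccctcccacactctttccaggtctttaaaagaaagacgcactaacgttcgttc

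In the first 6 sequences the RUNX core is absent in both spellings searched, TGTGGT and TGCGGT, on both strands, and GC boxes are present in each. Nr1d2 and Nr3c2 each hold 3 GC boxes, Nr2f6 holds 7 and Nr4a3 holds 1. Over the 300-base promoters of the table (250 bases before to 50 after a start), 63 belonged to 42 receptor genes, and Thra, Nr3c1, Hnf4g and Nr5a1 had no entry. TGTGGT occurred in 7 of the 63 (11.1%), against 16.8% of all 32851 promoters and 15.0% of the 21262 of protein-coding genes. TGCGGT occurred in 0, against 6.45% of all 32851. Of the 24 receptor promoters met by a peak in every library, none held TGTGGT, while 10.4% of 7806 promoters of protein-coding genes met in every library did. Other motifs, chosen after the peaks had been seen, were counted in the same 24 promoters. GGGCGG was in 17 (70.8%, against 75.2% of the 7806), CGGAAG in 4 (16.7%, against 38.4%), the cAMP response element TGACGTCA in 1 (4.17%, against 4.25%) and the AP-1 site TGANTCA in 0 (against 3.64%). A match or its absence describes these letters in this window and says nothing of what Runx1 bound. Sequences of the peaks inside the genes were not analysed here.

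At these 6 promoters the summits lay between 233 and 49 bases before the start. Nr1d2, which encodes the clock repressor REV-ERB beta, had the highest fold of any receptor peak in each library, 19.0 in sham, 28.3 at D14 and 23.3 at D56. That peak ranked above 99.9% of sham peaks, 98.7% of D14 peaks and 99.8% of D56 peaks. At Nr3c2, the mineralocorticoid receptor, the promoter peak had folds of 11.2 (sham), 27.1 (D14) and 16.9 (D56), with summits 185, 182 and 162 bases before the start. Nr2f6, an orphan receptor of the COUP-TF group, had folds of 8.33, 24.2 and 15.4 in the same order, and the fatty acid receptor Ppard 8.47, 22.1 and 13.9. For Nr4a2 the values were 14.4, 21.3 and 13.1, and for Nr4a3 10.9, 19.8 and 6.63. In all, 20 receptor genes had an annotated start with a summit in its promoter in every library, and their D14 summits lay from 233 to 24 bases before the start. That range is bounded by the choice of genes, since the promoter ran from 250 bases before to 50 after a start. Promoters with a peak whose summit lay outside were left out, such as that of Ppara, with a D14 summit 359 bases before the start.

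**Figure D1:**
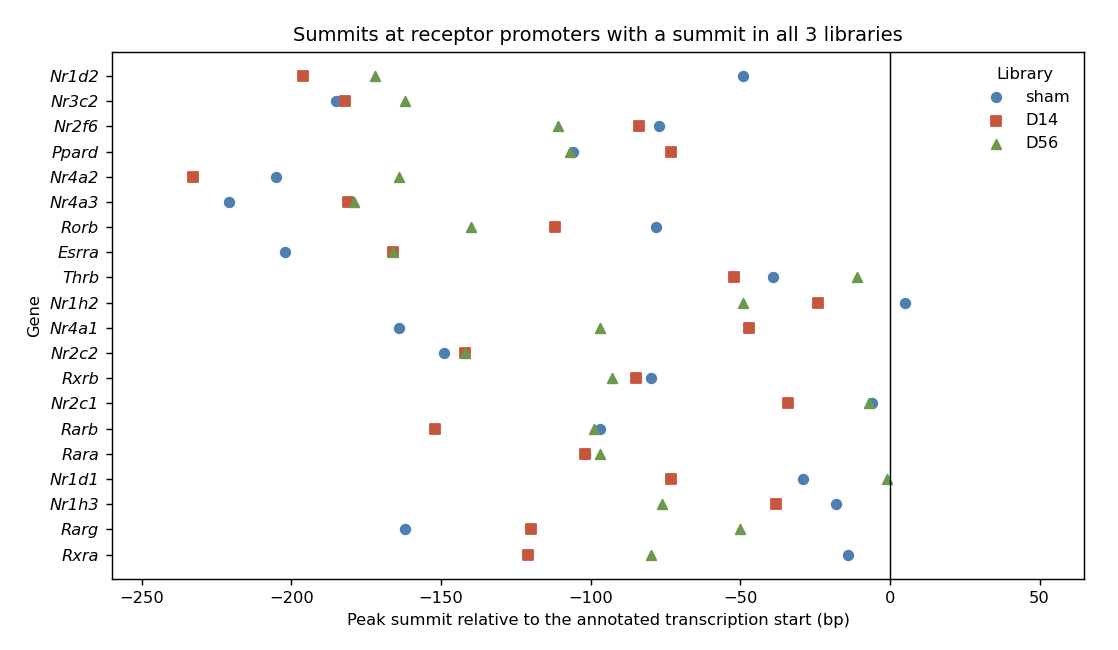
Position of the peak summit (x axis, bp from the annotated transcription start; negative is before it) at the 20 receptor genes whose promoter held a summit in every library, 1 start per gene, with genes on the y axis in order of D14 fold; circles are sham, squares D14 and triangles D56, and markers can cover each other. The D14 summits lie before the start at each gene, from -233 at Nr4a2 to -24 at Nr1h2. Genes were picked by a summit from 250 bp before to 50 bp after the start, which bounds this range.

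Peaks at the promoter in D14 alone were found at 5 genes, Rxrg, Pparg, Rora, Esr2 and Vdr. Vdr, the vitamin D receptor, had the strongest, with a fold of 10.7 (chr15:97907824-97908534) and a summit 12 bases before the start. Rxrg, the retinoid X receptor of muscle and brain, had a peak with a fold of 10.3 at each of 2 annotated starts. Rora had a fold of 7.78, Pparg 5.53 and Esr2, which encodes estrogen receptor beta, 4.53. In the Esr2 sequence above, the core spans the bases 78 to 73 before the start and the D14 summit was 75 before it. Promoters of Rarg and Nr2f1 also held TGTGGT and met a D14 peak, but core and summit lay apart. At Rarg the core lay 160 bases before the start and the D14 summit 32 after it. At Nr2f1 the core lay 35 bases after the start and the D14 summit 426 before it. That Esr2 peak ranked above 30.3% of D14 peaks only.

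Most receptor genes had a Runx1 peak in each library. Peaks lay at 38 of the 46 genes in sham (82.6%, against 60.3% of all protein-coding genes), at 43 at D14 (93.5%, against 73.3%) and at 32 at D56 (69.6%, against 53.7%). The same 32 genes had a peak in all 3 libraries, against 53.2% of protein-coding genes. A further 6 genes, Esr1, Esr2, Pgr, Hnf4a, Nr2e3 and Esrrg, had peaks in sham and at D14 and not at D56 (13.0%, against 6.95%). At D14 alone peaks were found at 5 genes, Rxrg, Nr1i2, Nr2e1, Esrrb and Nr5a2 (10.9%, against 12.6%). Hnf4g, Nr5a1 and Nr0b1 had none in any library (6.52%, against 26.6%). No receptor gene had peaks in sham alone or at D14 and D56 without sham.

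Longer genes offer more room for peaks, so the counts were split by gene length. Of the 8 receptor genes under 10 kb, 7 had a peak in each library, against 42.6% (sham), 53.6% (D14) and 38.6% (D56) of protein-coding genes of that length. Of the 16 from 10 to 50 kb, 12, 15 and 11 had a peak, against 68.4%, 81.5% and 61.4%. Of the 12 from 50 to 150 kb, 11, 12 and 8 had one, against 76.1%, 90.3% and 67.0%. Of the 10 above 150 kb, 8, 9 and 6 had a peak, against 68.2%, 89.4% and 57.3%. Above 10 kb the D56 counts were thus near those of protein-coding genes of the same length. The median receptor gene held 2, 4 and 1 peaks, and the median protein-coding gene 1, 2 and 1, without regard to length. By length, the D14 medians were 3 against 1 under 10 kb and 4.5 against 2 from 10 to 50 kb. They were 3.5 against 3 from 50 to 150 kb and 4.5 against 5 above 150 kb. Windows of 28 of the 46 genes also met another protein-coding gene, and a gene outside the family was the nearest to 21 of the 136 sham, 32 of the 231 D14 and 17 of the 72 D56 peaks.

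**Figure D2:**
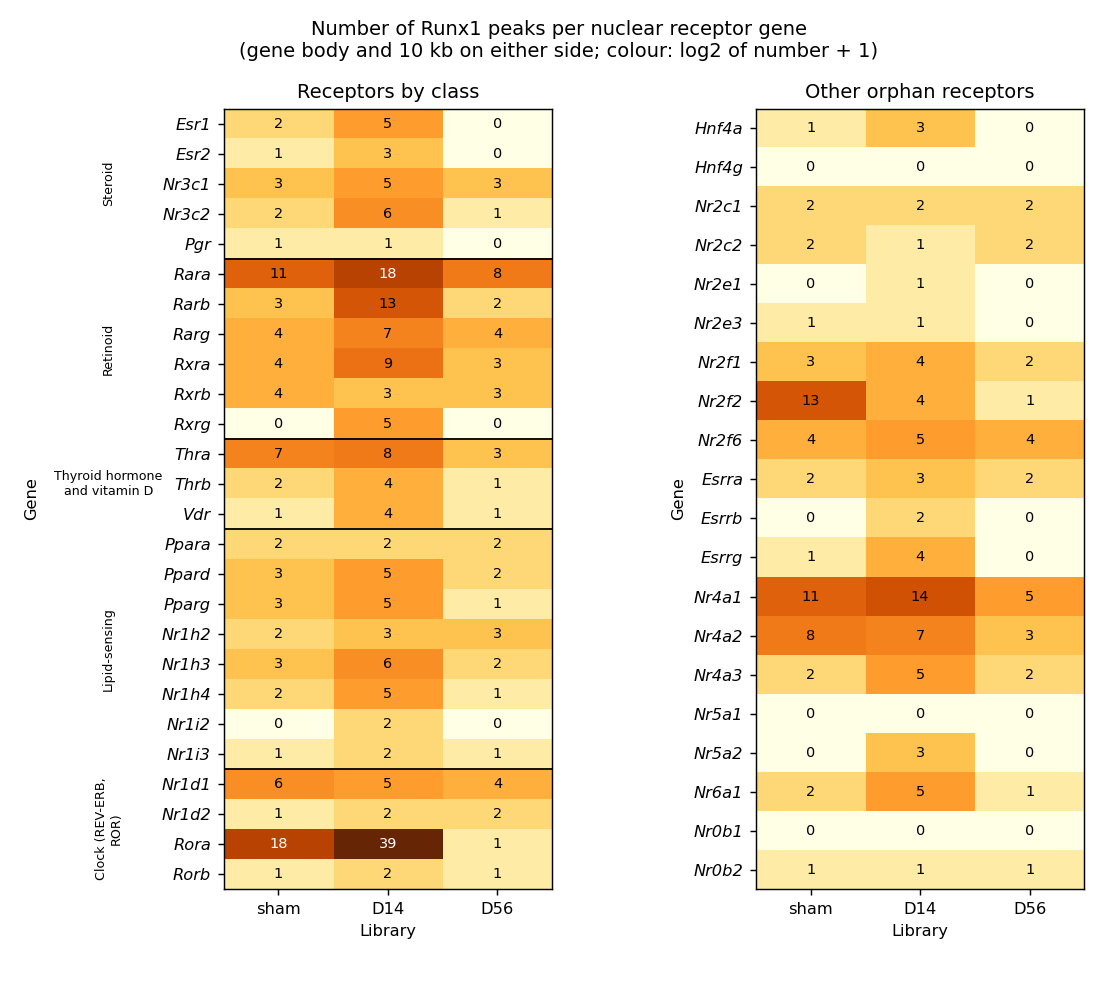
Number of Runx1 peaks (digits in the cells; colour is log2 of the number plus 1) for each of the 46 receptor genes (rows, by class) in the sham, D14 and D56 libraries (columns), counted over the gene body and 10 kb on either side. Rora has the most in sham (18) and at D14 (39) and 1 at D56, where Rara has the most (8), and Nr2f2 has 13 in sham against 4 at D14.

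The comparison of D14 with sham asks which receptor genes had Runx1 peaks after injury. More peaks at D14 than in sham were counted at 33 receptor genes (51.4% of protein-coding genes did so), fewer at 5 (against 2.39%), and 8 were equal. The 5 with fewer were Rxrb, Nr1d1, Nr2c2, Nr2f2 and Nr4a2. Peaks covered fewer bases at D14 than in sham at Nr1d1 (3024 against 4057) and Nr2f2 (2175 against 4938). They covered more at Rxrb (2119 against 1526), Nr2c2 (1327 against 1017) and Nr4a2 (4448 against 3989). At Rxrb, Nr2c2 and Nr4a2 a single D14 peak met neighbouring sham peaks, which lowers the count without a loss of covered bases. Of the 231 D14 peaks, 113 had no sham overlap (48.9%, 42.5 to 55.3), against 58.9% of all D14 peaks and 55.4% of those at protein-coding genes. Their median fold was 4.53 (against 4.75 at protein-coding genes), and that of the 118 with a sham overlap 9.84 (against 10.5). Summits within 1 kb of an annotated start made up 12.4% of the former and 35.6% of the latter, against 10.8% and 36.0% among all D14 peaks.

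These orders depended on list length. When each list was limited to its 15009 strongest peaks by p, D14 had more peaks than sham at 8 receptor genes (against 13.8% of protein-coding genes) and fewer at 14 (against 9.23%). Receptor genes with a peak then numbered 30 in sham, 35 at D14 and 32 at D56, against 52.5%, 56.7% and 53.7% of protein-coding genes. The share of D14 peaks without a sham overlap was then 22.2%, against 25.2% of all.

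Steroid receptors are the targets of estrogens, progesterone, glucocorticoids and mineralocorticoids. All 5 genes had peaks in sham and at D14, and 2 had them at D56, the glucocorticoid receptor Nr3c1 and Nr3c2. Nr3c1 held 3, 5 and 3 peaks, with highest folds of 8.01, 15.7 and 8.71. The 3 sham peaks stood close together inside the gene, 2 D14 peaks covered the same stretch, and the 3 other D14 peaks had no sham overlap. Nr3c2 held 2, 6 and 1 peaks, of which the promoter peak was present in each library and 4 of the D14 peaks had no sham overlap. Esr1, which encodes estrogen receptor alpha and spans 394 kb, held 2, 5 and 0 peaks, with folds of up to 4.09 in sham and 7.08 at D14. Esr2 held 1, 3 and 0, with D14 folds of 3.10 to 4.53. Pgr, the progesterone receptor gene, had the same single peak 3′ of the gene in sham (fold 5.43) and at D14 (5.02) and none at D56. Of the 20 D14 peaks at steroid receptor genes, 12 had no sham overlap (60.0%, 38.7 to 78.1). This was near the 58.9% of all D14 peaks and the 55.4% of those at protein-coding genes. Among the 15009 strongest peaks by p, only Nr3c1 and Nr3c2 of the 5 had a peak in any library.

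Retinoid receptors comprise the 3 retinoic acid receptors and the 3 RXRs. Together they held 26 sham, 55 D14 and 20 D56 peaks, and 31 of the 55 had no sham overlap (56.4%, 43.3 to 68.6). This was near the 58.9% of all D14 peaks and the 55.4% of those at protein-coding genes. Rara was the most densely marked, with 11, 18 and 8 peaks over a gene of 47.1 kb, which put it above 99.5%, 99.3% and 99.9% of protein-coding genes by number. All 8 D56 peaks at Rara overlapped peaks of both other libraries. Its highest folds were 8.67, 13.2 and 11.3, the last at a promoter 97 bases before the start. Of the 8 D14 peaks at Rara without a sham overlap, the highest (8.69, chr11:98918363-98918674) was nearest to the replication gene Cdc6.

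Rarb, the retinoic acid receptor gene that is itself a classic retinoic acid target, spans 651 kb and held 3, 13 and 2 peaks. Its promoter peak was present in each library, with folds of 5.13, 11.9 and 5.67, and 10 of the 13 D14 peaks had no sham overlap. A peak inside the gene (chr14:17005281-17005622, fold 6.23) was absent from sham and present at D56, where its fold was 5.79. Rarg, the retinoic acid receptor of skin and cartilage, held 4, 7 and 4 peaks, with highest folds of 12.2 in sham and 7.23 at D56, and at D14 its strongest peak ranked above 93.1% of the list. Rxra, the broadly used partner receptor, held 4, 9 and 3, with highest folds of 7.25, 12.5 and 7.71.

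At Rxrb the numbers were 4, 3 and 3, and each of the 3 D14 peaks overlapped peaks of the other libraries. The strongest D14 peak, with a fold of 13.8, spanned the Rxrb start, with its summit 85 bases before it and nearest to the neighbouring gene Slc39a7. The other 2 were nearest to Ring1 and H2-Ke6. Rxrg had none in sham, 5 at D14 and none at D56. The folds of these 5 ran from 3.26 to 10.3, and none was among the 15009 strongest D14 peaks by p.

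Thyroid hormone and vitamin D receptor genes had a peak at all 3 genes in each library, against 60.3%, 73.3% and 53.7% of protein-coding genes. Of their 16 D14 peaks, 7 had no sham overlap (43.8%, 23.1 to 66.8), against 55.4% of those at protein-coding genes. Thra, the thyroid hormone receptor alpha gene, held 7, 8 and 3 peaks, but it overlaps the clock gene Nr1d1, and both were counted with the same peaks where their windows met. The highest Thra peak in sham (12.5) and at D56 (12.4) was nearest to Nr1d1. Thrb, the beta receptor gene, held 2, 4 and 1 peaks, with a promoter peak of fold 18.5 at D14 (chr14:17660571-17661277). Vdr held 1, 4 and 1 peaks. The sham peak (fold 2.72), the D56 peak (4.07) and a D14 peak (5.13) lay at the same place 3′ of the gene. The other 3 D14 peaks, with folds of 6.44, 10.7 and 8.47, had no overlap in sham or at D56. Their summits lay 962 bases after, 12 before and 6228 before the start, in that order.

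Lipid-sensing receptors respond to fatty acids, oxysterols, bile acids and foreign compounds. Of the 8 genes, 7 (sham), 8 (D14) and 7 (D56) had a peak, against 60.3%, 73.3% and 53.7% of protein-coding genes. Of their 30 D14 peaks, 14 had no sham overlap (46.7%, 30.2 to 63.9). That interval holds the 58.9% of all D14 peaks and the 55.4% of those at protein-coding genes. Ppara, a driver of fatty acid oxidation, had the same 2 peaks in each library. The stronger in sham had a fold of 10.8 and lay nearest to Cdpf1. Ppard held 3, 5 and 2 peaks and Pparg 3, 5 and 1. The Pparg peak shared by all libraries lay inside the gene (chr6:115462949-115463386 at D14) and had folds of 5.70, 14.4 and 5.90.

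The oxysterol receptor genes Nr1h2 and Nr1h3 (the LXRs) held 2, 3 and 3 peaks and 3, 6 and 2 peaks. The strongest of Nr1h2 at D14 (24.3) was nearest to Pold1, a DNA polymerase gene. Nr1h4, the bile acid receptor gene, held 2, 5 and 1 peaks. Among receptor peaks at D14 that sham lacked, it had the highest fold, 14.8 (chr10:89531140-89531689), inside the gene, and another of 10.1. Nr1h4 was also among the 8 genes with more D14 than sham peaks in lists of equal length, with 4 against 1.

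Nr1i2, the xenobiotic receptor PXR, had 2 peaks in its window at D14 and none in the other libraries. The outer peak, with a fold of 10.9 (chr16:38304729-38305245), met the outer edge of the window, was nearest to Maats1 and overlapped a D56 peak that lay outside the window. Nr1i3, the related receptor CAR, held 1, 2 and 1 peaks, and each of them was nearest to another gene. Its peak of fold 16.6 at D56, the highest of this class in that library, was nearest to the apolipoprotein gene Apoa2.

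The clock receptors REV-ERB (Nr1d1, Nr1d2) repress and the RORs (Rora, Rorb) activate through the same DNA element. All 4 genes had a peak in each library, against 60.3%, 73.3% and 53.7% of protein-coding genes. Of their 48 D14 peaks, 26 had no sham overlap (54.2%, 40.3 to 67.4), near the 55.4% of those at protein-coding genes. Nr1d1 held 6, 5 and 4 peaks over a gene of 7.45 kb, and peaks covered 14.8% of its window in sham, 11.0% at D14 and 7.72% at D56. In sham 99.5% of protein-coding genes were covered less, at D14 98.7% and at D56 99.7%. Nr1d2 held 1, 2 and 2 peaks, and the pair at D56 lay where sham had a single wide peak. Rorb held 1, 2 and 1 peaks, with a D14 fold of up to 19.0.

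Rora, which spans 735 kb, held 18 sham, 39 D14 and 1 D56 peaks. An excess of D14 over sham peaks as large as this was found at 16 protein-coding genes (0.0731%). Of its 39 D14 peaks, 24 had no sham overlap, and the highest of all (16.2) stood at the place of the single D56 peak (7.47) and of a sham peak (7.59). By coverage Rora was unremarkable: peaks covered 0.727%, 1.43% and 0.0427% of its window, and 53.2%, 49.9% and 46.5% of protein-coding genes were covered less. Among the 15009 strongest peaks by p the order turned, with 10 in sham, 5 at D14 and 1 at D56.

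**Figure D3:**
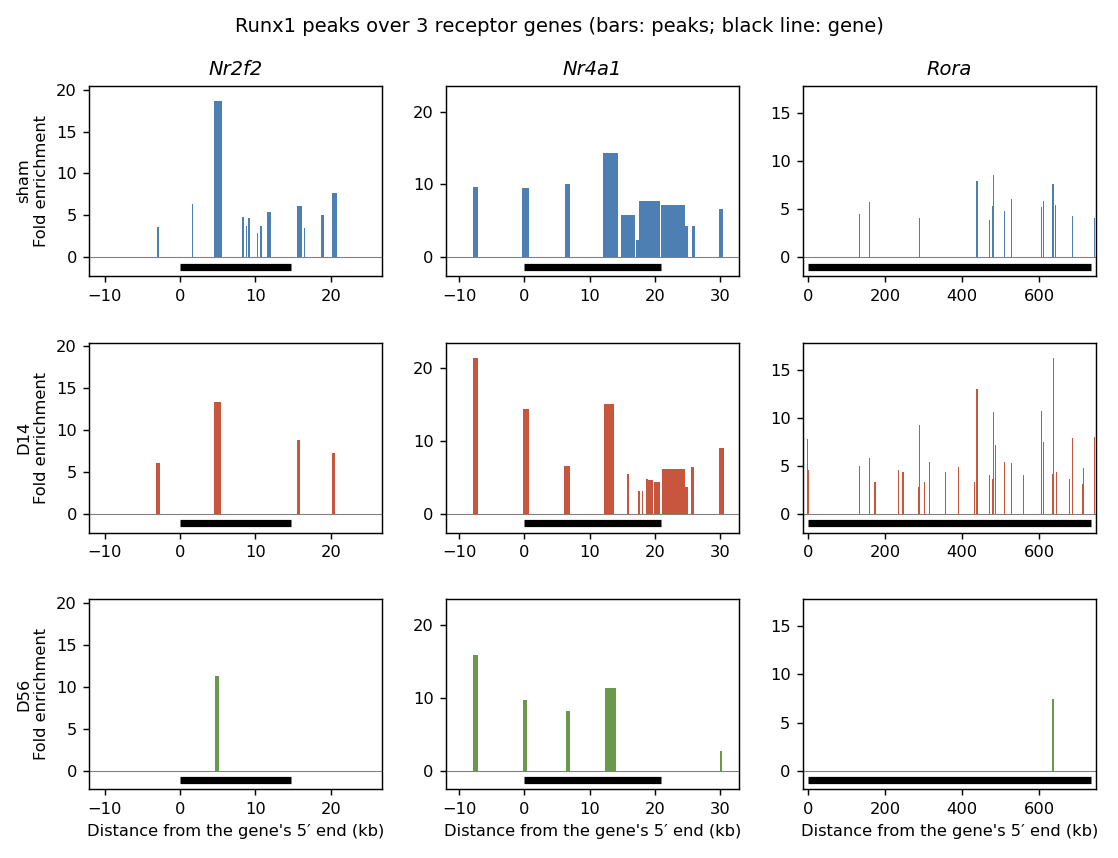
Runx1 peaks over Nr2f2, Nr4a1 and Rora (columns) in sham, D14 and D56 (rows); the x axis is the distance from the gene's 5′ end in kb, bars span each peak, their height is the authors' fold enrichment in that library and the black line is the gene. Nr2f2 shows 13 sham peaks against 4 at D14, the 5 D56 peaks of Nr4a1 lie where both other libraries have peaks, and Rora shows 39 peaks at D14 against 1 at D56.

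Of the 20 other orphan receptor genes, 14 had a peak in sham, 17 had one at D14 and 11 at D56 (70.0%, 85.0% and 55.0%, against 60.3%, 73.3% and 53.7% of protein-coding genes), so the D56 share was near that of any gene. Of their 65 D14 peaks 23 had no sham overlap (35.4%, 24.9 to 47.5), against 55.4% of those at protein-coding genes. This was the lowest share of the 6 classes, and its interval overlapped that of each other class. Nr4a1 held 14 of the 65 peaks, and each of these overlapped a sham peak. Several of them met the same sham peak of 3196 bases, while the interval treats each as a separate count. Of their 53 sham peaks, 13 had no D14 overlap (24.5%, 14.9 to 37.6), and 9 of these 13 were at Nr2f2. The share was 8.31% among all sham peaks and 7.16% among those at protein-coding genes.

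Nr2f2 encodes COUP-TFII, a receptor of mesenchymal, venous and lymphatic cells. The sham library had 13 peaks there, the D14 library 4 and the D56 library 1. An excess of sham over D14 peaks as large as this was found at 6 protein-coding genes (0.0274%). Each D14 peak overlapped a sham peak, and the 9 sham peaks without a D14 overlap had folds of 2.86 to 6.39. The strongest of these 9 (chr7:70364955-70365207) lay inside the gene, 1634 bases from the start. A peak inside the gene was called in every library, at chr7:70361211-70362231 in sham (fold 18.6, above 99.9% of sham peaks), with folds of 13.4 at D14 and 11.3 at D56. Peaks covered 14.2% of the window in sham, 6.25% at D14 and 1.29% at D56. Over 100 kb on either side the numbers were 15, 11 and 2, so D14 peaks farther out narrowed the gap. The direction was the same among the 15009 strongest peaks by p, with 4 in sham and 1 at D14, and by fold, with 8 and 2. Within 1 kb of either gene end there was 1 peak in each of these libraries.

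Nr2f1, the paralogue encoding COUP-TFI, held 3, 4 and 2 peaks, all of them outside the gene. Nr2f6 held 4, 5 and 4, of which 2, 3 and 2 were nearest to another gene.

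The NR4A genes are immediate early genes, transcribed within minutes of many stimuli. Nr4a1 held 11, 14 and 5 peaks. All 5 D56 peaks overlapped peaks of both other libraries, and each of the 14 D14 peaks overlapped a sham peak. Peaks covered 38.8%, 29.5% and 9.95% of its window, and at least 99.9% of protein-coding genes were covered less in each library. Much of the sham coverage lay in the 3′ part of the gene and beyond it, in peaks of 2082, 3196 and 3555 bases. At D14 the last of these places held a peak of 3508 bases, and at D56 none of the 3 did. The strongest Nr4a1 peaks were 14.3 in sham, at the promoter, and 21.4 at D14 and 15.9 at D56, both upstream of the gene at chr15:101246047-101246839 (D14).

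Nr4a2 held 8, 7 and 3 peaks, with 2 sham peaks that D14 lacked and 2 D14 peaks that sham lacked. Nr4a3 held 2, 5 and 2 peaks, and the same 2 places, the promoter and a site 1.9 kb upstream, were called in each library. At D56 the upstream site was the strongest of the class, with a fold of 19.6 (chr4:48042754-48043686), while the promoter had 6.63.

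Of the estrogen-related receptor genes, which act in energy metabolism, Esrra held 2, 3 and 2 peaks, Esrrg 1, 4 and 0 and Esrrb 0, 2 and 0. Esrrg had a D14 peak of fold 12.2 without a sham overlap (chr1:187910774-187911129). Nr2e3, the photoreceptor receptor gene, had 1 peak in sham (3.09) and 1 at D14 (13.9, chr9:59959354-59959667) at different places. Nr2c1 held 2 peaks in each library. Nr2c2 held 2, 1 and 2 at its start, where the single D14 peak spanned both places. Nr6a1 held 2, 5 and 1 peaks and Hnf4a, a liver and gut receptor gene, 1, 3 and 0. Nr0b2, a corepressor-like receptor gene, had the same peak in each library with a fold of 23.1 at D14, nearest to Nudc. Nr2e1 and Nr5a2 had 1 and 3 peaks at D14 alone, with folds of 4.84 and of 4.43 to 6.47.

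**Figure D4:**
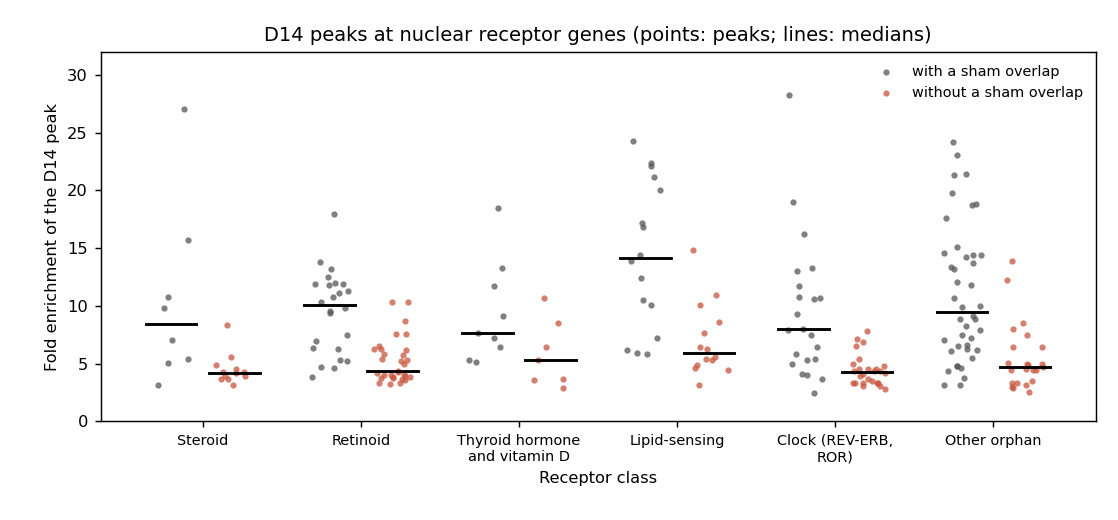
Fold enrichment (y axis, the authors' value, linear) of each D14 peak at receptor genes by class (x axis), split by whether it overlaps a sham peak (grey) or not (red); lines are medians. The peaks without a sham overlap lie mostly below those with one, and over all classes the medians are 4.53 and 9.84. Among D14 peaks at all protein-coding genes they are 4.75 and 10.5.

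D56 was compared with both other libraries to ask which peaks were called late. Receptor genes with more peaks at D56 than at D14 numbered 1 (Nr2c2, against 0.855% of protein-coding genes), and those with more than sham 2 (Nr1h2 and Nr1d2, against 3.07%). In these 3 cases the extra D56 peak lay where the other library had a single wider peak. Of the 231 D14 peaks, 68 had a D56 overlap (29.4%, 23.9 to 35.6). Among all D14 peaks 25.6% had one, and among those at protein-coding genes 29.4%, the same share. Of the 136 sham peaks, 68 had one (interval 41.7% to 58.3%), against 55.7% of all and 59.6% of those at protein-coding genes.

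Of the 118 D14 peaks that overlapped sham, 66 also met a D56 peak (55.9%, 46.9 to 64.6). Among all such peaks 60.2% did, and among those at protein-coding genes 63.9%. Of the 113 that did not overlap sham, 2 met one (1.77%, 0.487 to 6.22), against 1.45% of all and 1.61% at protein-coding genes. Those 2 were the Rarb peak and the outer Nr1i2 peak given above. Joined across libraries, receptor genes held 66 regions called in all 3, 45 in sham and D14, 112 at D14 alone, 18 in sham alone and 1 at D14 and D56. Only peaks that met a window were joined, and the D56 peak that meets the outer Nr1i2 peak lay outside the window, so that region is among the 112. All 72 D56 peaks overlapped a D14 peak, against 99.4% of all D56 peaks. Summits within 1 kb of an annotated start made up 52.8% of D56 peaks (41.4 to 63.9), 31.6% of sham peaks and 24.2% of D14 peaks, against 48.7%, 34.3% and 21.1% of all peaks.

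**Figure D5:**
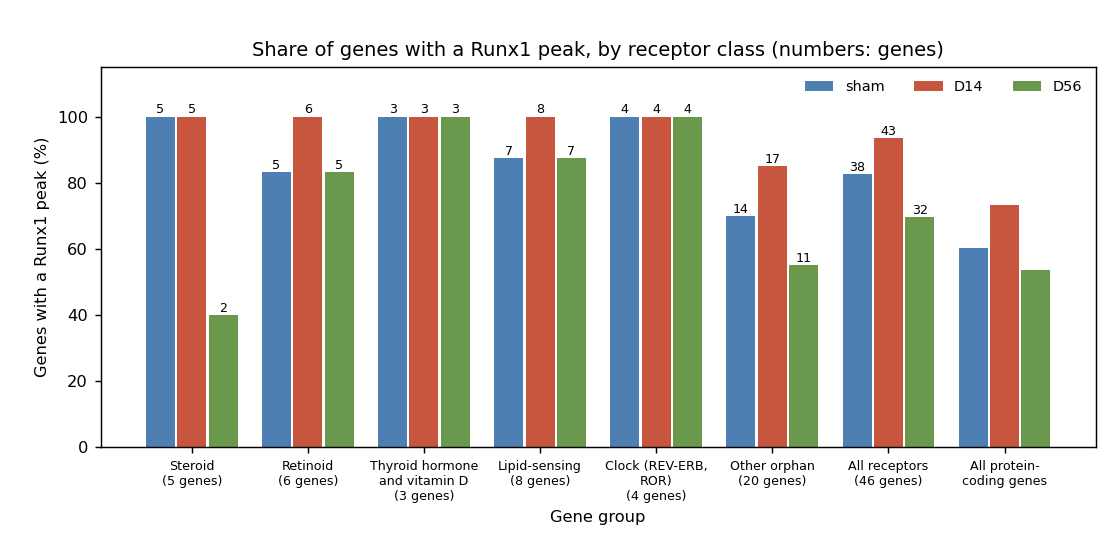
Share of genes with a Runx1 peak (y axis, percent; digits above bars are genes) for each receptor class, all 46 receptors and all protein-coding genes, in sham (blue), D14 (red) and D56 (green). All 4 clock receptor genes have a peak in each library, and 2 of 5 steroid receptor genes have one at D56. Among all protein-coding genes the shares are 60.3% in sham, 73.3% at D14 and 53.7% at D56.

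Other genes of receptor signalling were counted from 5 lists of 50 genes in all, and 43 (86.0%) had a peak in sham, 48 (96.0%) at D14 and 40 (80.0%) at D56, against 60.3%, 73.3% and 53.7% of protein-coding genes. Of their D14 peaks 50.2% had no sham overlap (44.5 to 55.9), against 55.4% of those at protein-coding genes. All 13 coregulator genes had peaks in sham and at D14 and 12 at D56. The corepressor subunit Hdac3 (37.5), the coactivator Ncoa2 (27.2) and the corepressor subunit Tbl1xr1 (20.5) had the highest D14 folds. Peaks of these 5 lists, and of the cell type markers below, were not checked for a nearer neighbouring gene. Ppargc1a, a coactivator of mitochondrial genes, held 1, 15 and 0 peaks.

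Of the 11 retinoid metabolism genes, 7 (63.6%), 10 (90.9%) and 8 (72.7%) had a peak, against 60.3%, 73.3% and 53.7% of protein-coding genes. Of their 47 D14 peaks, 32 had no sham overlap (68.1%, 53.8 to 79.6), and the 55.4% at protein-coding genes lies inside that interval. Aldh1a2, a retinoic acid synthase gene, held 0, 3 and 0 peaks, Crabp1, a retinoic acid carrier gene, 0, 1 and 0, and Cyp26b1, which encodes a retinoic acid-degrading enzyme, 0, 5 and 1. The highest D14 folds of the list were at Crabp2 (17.9), Rdh10 (16.1) and Aldh1a3 (14.6).

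Glucocorticoid targets and enzymes had peaks at 7, 8 and 7 of 8 genes, against 60.3%, 73.3% and 53.7% of protein-coding genes. Fkbp5 (21.6), Sgk1 (20.6) and Dusp1 (16.9) led the list at D14, and Hsd11b2, which inactivates glucocorticoids, had 4 peaks at D14 alone. PPAR and LXR target genes had peaks at 8, 9 and 5 of 10, the D56 count near the share of protein-coding genes, led by Pdk4 (26.4), Cpt1a (18.3) and Srebf1 (15.6), with 2 peaks at the lipid droplet gene Plin2 at D14 alone and none at Fabp4. All 8 circadian clock genes had peaks in each library, led at D14 by Cry2 (31.9), Cry1 (27.9) and Dbp (26.0).

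Markers of cell types that the green gate could hold were counted in the same way. Of the 8 fibroblast markers, 7 had a peak in each library, the exception being Lum. Endothelial markers had them at 3, 5 and 3 of 5 genes, immune markers at 1, 2 and 1 of 5 and epithelial markers at 3, 4 and 1 of 5. Among protein-coding genes the shares were 60.3%, 73.3% and 53.7%, so the endothelial counts in sham and at D56 and the epithelial counts in sham and at D14 were near those of any gene. The part of other cell types in the receptor peaks was not tested.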

How the data were processed

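Runx1 ChIP-seq peak lists of 3 lung fibroblast samples (sham, D14, D56) were used, 1 per condition, grouped by title; the 3 inputs entered only as the background of each list. The submitters' processing notes name BWA, SAMtools, MACS2 and build mm10. Per the file headers, MACS 2.0.10.20120913 called the peaks of each condition separately, with the matching input as control and a q-value limit of 0.01. The deposited columns are, per the file headers, the pileup signal at the summit, the −log10 p-value, the −log10 q-value and the fold enrichment, a ratio of pileup to local background made by the authors for each library separately. Alignment settings: not given in the sources used here.

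Peaks of the autosomes, X and Y were matched to RefSeq genes (GRCm38.p6) by an overlap of 1 bp or more with the gene body and 10 kb on either side (Python 3.11.15, pandas 2.3.3). Starts and promoter sequences came from the RefSeq promoter table. Counts stand beside those of 21883 protein-coding genes or all peaks; with 1 library per condition nothing was tested, and 95% Wilson intervals cover counting error only. The steps were tested on simulated data. The members, classes, gene lists and tests were chosen with earlier results of these data known. Positions were given by rule for the strongest peak per class and library, the 10 highest D14 peaks absent from sham, those found at D56 and the highest sham peaks without a D14 overlap; pathway genes were the 3 highest D14 folds per list and genes with peaks in 1 library. Rara, Rxrb, Vdr, Nr4a1, Ppargc1a and Cyp26b1 details outside the rule were chosen after their values were seen. Alternatives were stricter q or fold thresholds, lists of equal length, thinning to the D56 scaled depth (50.4% of sham and 40.5% of D14 pileups kept), other gene windows and overlap rules, and merged peaks.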

Additional observations from a re-analysis of the deposited data

How the results depend on the processing

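The difference in receptor genes with a peak, D14 minus sham, was 5, and became 8 with a −log10 q of 5 or more, 9 with a fold of 5 or more, 8 after thinning, 9 within 1 kb of a gene end and 3 by nearest gene. D56 minus D14 was -11, and -3 or -4 in lists of equal length by p or by fold. D56 minus sham was -6; it was -1 with a fold of 5 or more, -1 after thinning, and turned to 2 and 1 in lists of equal length by p and by fold. The D14 share without a sham overlap (48.9%) was 22.2% and 26.7% at equal length by p and by fold, 26.7% within 1 kb of a gene end and 61.5% with reciprocal overlap. The D14 share with a D56 overlap (29.4%) was 37.9% with a fold of 5 or more, 79.2% and 76.0% at equal length, 37.1% after thinning, 51.1% within 1 kb and 16.5% with reciprocal overlap. The sham share with a D56 overlap was 71.4% and 64.0% at equal length, 64.9% within 1 kb and 39.0% with reciprocal overlap. Lists of equal length hold fewer of the weak sham and D14 peaks by construction; the cause of the other shifts was not tested. Shares over all peaks are not set beside these values, so the shifts cannot be read as particular to receptor genes.

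D14 minus sham peak numbers changed sign for single genes. At equal length by p they were -1 for Nr1h3, Nr2f6, Nr3c1, Ppard, Pparg, Rarg and Thra, -2 for Rara, -3 for Nr4a1 and -5 for Rora. At equal length by fold they were -1 for Esrra, Nr1h3, Ppard, Pparg and Thra, -3 for Rara, -4 for Nr4a1, -5 for Rora and 1 for Rxrb. With a fold of 5 or more Nr4a2 and Rxrb had 1, after thinning Esr2 had -1, and within 1 kb of a gene end Nr6a1 and Rarg had -1. Nr2f2 (-9) stayed negative in 8 of 9 alternatives, from -2 to -7, and was 0 within 1 kb of a gene end. No paired analysis was possible because each condition had 1 ChIP library.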
